A study of Mus musculus with 6 samples.

Results

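The genes described here encode the transcription factors that hold mouse embryonic stem cells (mESCs) in naive pluripotency. They are the core factors Pou5f1, Nanog and Sox2, the Krüppel-like factors Klf2, Klf4 and Klf5, and the accessory factors Tfcp2l1, Tbx3, Prdm14 and Nr5a2. These 10 of 21938 protein-coding genes of GENCODE vM21 (mm10) were chosen by name, and each DPPA4 peak within 50 kb of their gene bodies was taken. Joining peaks that shared at least 1 bp gave 191 of the 99695 regions on the chromosomes, made of 184 of the 83602 GFP-negative and 79 of the 54642 GFP-positive peaks.

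DPPA4 was profiled by CUT&RUN, in which an antibody directs a nuclease to chromatin and the released fragments are sequenced. All samples came from 1 line, named EHMT2-dTAG-mcherry-mervl-gfp, of a BL6/129 hybrid strain grown in FBS/LIF medium, and all were exposed to dTAG for 72 h. The dTAG compound degrades the tagged histone methyltransferase EHMT2, so both cell states were depleted of EHMT2 and no untreated sample was among them. Live cells were sorted by a GFP reporter of the MERVL retroviral promoter, into GFP-negative cells, which stand for mESCs, and GFP-positive cells, which stand for 2-cell-like cells (2CLCs). There were 2 DPPA4 libraries of each state and 2 IgG controls, 1 each from GFP-negative and bulk cells, which were not analysed here. The authors deposited 1 peak list per state, with both libraries merged, so no value below has an error between replicates and no test between the lists was possible.

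DPPA4 works as a heterodimer with DPPA2, binds CpG-rich promoters, and is required in mESCs for genes of zygotic genome activation. The naive factors form a network in which POU5F1 (OCT4) and SOX2 bind together at distal enhancers and switch on their own genes and those of NANOG and the KLF factors. Distal enhancers of this network are mostly particular to the cell state, whereas promoters are often open in many cell types. The comparison asked whether promoter and distal occupancy by DPPA4 near these genes were alike in the lists of both cell states.

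The windows below show the sequence under the summits that the comparison turns on. All are plus-strand RefSeq sequence of GRCm38.p6, the assembly of mm10, and reach 50 bases to either side of the summit except where a window was shortened to leave out an exon. The first set gives the strongest promoter summit of the core and KLF genes, with each CpG in capitals, since DPPA4 is known for CpG-rich promoters. They lie at chr17:35503987-35504087 (Pou5f1), chr6:122707419-122707488 (Nanog, 70 bases), chr3:34649927-34650027 (Sox2), chr8:72318906-72319006 (Klf2), chr4:55532950-55533050 (Klf4) and chr14:99298465-99298565 (Klf5).
Pou5f1 promoter: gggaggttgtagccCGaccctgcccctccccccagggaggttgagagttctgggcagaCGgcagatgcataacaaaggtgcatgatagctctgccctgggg
Nanog promoter: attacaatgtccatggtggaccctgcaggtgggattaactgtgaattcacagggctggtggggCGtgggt
Sox2 promoter: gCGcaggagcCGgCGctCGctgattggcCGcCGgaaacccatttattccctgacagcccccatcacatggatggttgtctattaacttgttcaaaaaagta
Klf2 promoter: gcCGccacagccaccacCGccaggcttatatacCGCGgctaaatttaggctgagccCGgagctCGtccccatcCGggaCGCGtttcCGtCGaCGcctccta
Klf4 promoter: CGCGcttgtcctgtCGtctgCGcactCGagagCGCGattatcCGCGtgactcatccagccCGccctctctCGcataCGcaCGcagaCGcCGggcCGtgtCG
Klf5 promoter: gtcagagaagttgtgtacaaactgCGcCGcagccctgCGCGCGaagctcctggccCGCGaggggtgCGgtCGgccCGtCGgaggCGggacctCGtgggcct
The KLF windows held 12 (Klf2), 17 (Klf4) and 13 (Klf5) CpGs, the Sox2 window 6, the Pou5f1 window 2 and the shortened Nanog window 1. Each summit is that of the list with the higher −log10 q, which is the GFP-positive list for Klf4 and the GFP-negative list for the others. In these windows the core genes thus held fewer CpGs than the KLF genes. Summits of the other list were not examined for CpGs. The Pou5f1 window lies in the stretch upstream of the start site that is known to hold its enhancers, and it contains the letters GCATAACAA, in which a POU half-site stands next to a SOX half-site. These letters were looked for after this window had been read. In the 201 bp around the summit they were found, on either strand, in 1 of 46 promoter regions near the 10 genes. This was the Pou5f1 region itself, so the count was fixed once the letters were chosen. Of all 28172 promoter regions 0.0887% held them, and the shares are not a comparison.

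The second set gives distal summits, at chr8:72316303-72316403 (Klf2, in both lists, the strongest distal region), chr6:122702612-122702712 (Nanog, in both lists), chr17:35485926-35486026 (Pou5f1, GFP-negative list alone), chr3:34668538-34668638 (Sox2, GFP-negative list alone), chr1:118648097-118648197 (Tfcp2l1, GFP-negative list alone, the strongest of its class) and chr1:136984925-136985025 (Nr5a2, GFP-positive list alone, the strongest of its class). Capitals mark matches, on either strand, to the motif letters ATTTGCAT (octamer, bound by POU factors), ACAATG (SOX), CCACCC (KLF), AAGGTCA (nuclear receptors such as ESRRB and NR5A2) or GCATAACAA.
Klf2 −3.12 kb: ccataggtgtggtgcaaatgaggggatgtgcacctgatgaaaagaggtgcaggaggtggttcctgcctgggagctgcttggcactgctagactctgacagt
Nanog −4.83 kb: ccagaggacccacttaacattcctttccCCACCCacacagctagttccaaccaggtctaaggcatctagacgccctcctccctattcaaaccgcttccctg
Pou5f1 −20.0 kb: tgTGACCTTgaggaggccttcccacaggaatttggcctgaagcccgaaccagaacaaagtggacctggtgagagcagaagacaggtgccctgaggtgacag
Sox2 +18.2 kb: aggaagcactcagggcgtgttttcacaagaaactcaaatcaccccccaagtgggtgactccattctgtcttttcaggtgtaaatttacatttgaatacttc
Tfcp2l1 +20.2 kb: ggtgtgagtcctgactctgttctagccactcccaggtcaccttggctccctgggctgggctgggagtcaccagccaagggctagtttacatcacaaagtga
Nr5a2 −24.5 kb: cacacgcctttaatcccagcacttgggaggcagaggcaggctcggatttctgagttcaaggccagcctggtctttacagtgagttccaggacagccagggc
Distances are from the 5′ end of the gene in the direction of transcription, with minus for upstream. The Pou5f1 window held 1 nuclear receptor match and the Nanog window 1 KLF match, while the other windows held none of these letters. Of the 201 bp around the Nr5a2 summit, 83.1% were soft-masked as repeats or low-complexity sequence, against 26.4% at the Klf2, 10.9% at the Tfcp2l1 and 0% at the Pou5f1, Nanog and Sox2 summits of this set.

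Near the 10 genes, 63 regions held peaks of both lists (common, 33.0%, 95% Wilson interval 26.7 to 39.9), 117 held GFP-negative peaks alone (61.3%, 54.2 to 67.9) and 11 held GFP-positive peaks alone (5.76%, 3.25 to 10.02). Over all regions of the genome the shares were 35.0%, 46.7% and 18.4%. The share of common regions near the 10 genes was thus close to that of the genome, and the share found in the GFP-positive list alone was lower. The intervals cover counting error only, and neighbouring regions of 1 gene are not independent. The methods state 1 nominal depth for all libraries, but not the reads behind each list, so a longer list from deeper libraries and more sites in the cells cannot be told apart. All shares are over the lists as deposited, which hold more regions than the study counts as sites.

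**Figure D1:**
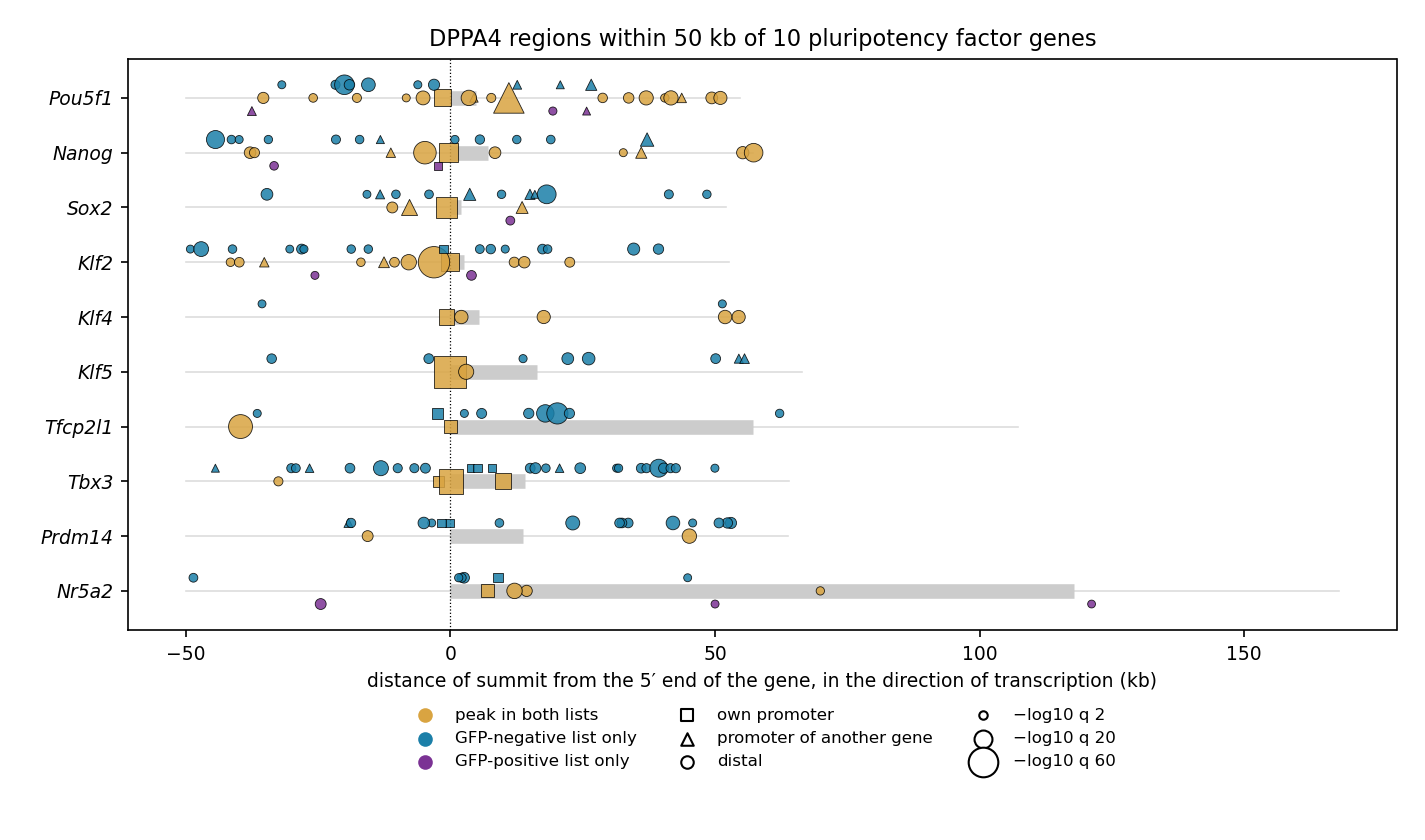
Each row is 1 of the 10 genes and each symbol a DPPA4 region, placed by its distance in kb from the 5′ end of the gene (grey bar, gene body, and thin line, the window searched). Colour gives the class, shape the place and size the highest −log10 q, and the 117 GFP-negative-specific regions (blue) spread over every row, whereas the 11 GFP-positive-specific ones (purple) lie at Pou5f1, Nanog, Sox2, Klf2 and Nr5a2.

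Promoter occupancy was compared first, with a promoter reaching 2.5 kb upstream and 0.5 kb downstream of each annotated start site of the gene. In the GFP-negative list 10 of the 10 genes had a peak summit in their own promoter, against 67.8% of all protein-coding genes. In the GFP-positive list 9 of 10 did, against 59.3% of all, and 9 of 10 did in both lists, against 57.0%. Prdm14 was the gene without a GFP-positive promoter peak. The own promoters held 20 regions. Peaks of both lists met in 11 of them, 8 were GFP-negative-specific and 1 was GFP-positive-specific.

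The strength of a peak is given by its −log10 q, the significance of the summit over background, and by its fold enrichment over that background. Both were set by the authors within each list, so levels are not on 1 scale across lists, and the percentile of a peak, the share of its own list with the same or a lower −log10 q, is given beside them.

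Of the core genes, Pou5f1 encodes the POU factor OCT4. Its strongest promoter peak had a −log10 q of 17.6 (fold 7.11, percentile 85.8) in the GFP-negative list and of 6.60 (fold 5.13, percentile 70.0) in the GFP-positive list. The GFP-negative peak was 2975 bp wide, and the GFP-positive list had 2 peaks in the same region. Nanog encodes a homeodomain factor. Its promoter had a −log10 q of 23.4 (fold 10.95, percentile 89.6) in the GFP-negative list and of 5.25 (fold 5.22, percentile 64.4) in the GFP-positive list. This was the largest gap in percentile among the strongest promoter regions of the 9 genes that had a peak in both lists. Nanog also had the 1 promoter region of the GFP-positive list alone, at −2.33 kb, with a −log10 q of 1.75 and 92.5% soft-masked bases. Sox2 encodes the HMG-box partner of OCT4. Its promoter had a −log10 q of 27.6 (fold 13.1, percentile 91.5) in the GFP-negative list and of 17.0 (fold 9.63, percentile 88.3) in the GFP-positive list, and its peaks were the widest of these promoters, at 3509 and 3506 bp.

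Summits at the core promoters were not in the same place in both lists. They lay 901 bp apart at Pou5f1, 646 bp apart at Nanog and 668 bp apart at Sox2. At the KLF genes they lay 44 bp (Klf2), 365 bp (Klf4) and 120 bp (Klf5) apart. When common meant summits within 200 bp of each other, 6 of 27 own-promoter regions were common, in place of 11 of 20. Over all promoter regions of the genome the common share fell as well, from 55.3% to 37.8%.

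The KLF genes encode zinc-finger factors that bind CACCC-type sites. Klf5 had the strongest promoter of the 10 genes, with a −log10 q of 72.0 (fold 26.7, percentile 98.9) in the GFP-negative list and of 25.9 (fold 13.3, percentile 94.2) in the GFP-positive list. Klf2 had 20.7 (fold 7.01, percentile 88.1) and 13.7 (fold 7.11, percentile 85.1). A second, weak region of the GFP-negative list alone lay at −1.35 kb of Klf2, with a −log10 q of 2.16. Klf4 went the other way, with 8.45 (fold 6.66, percentile 72.0) for GFP-negative and 13.5 (fold 8.90, percentile 85.0) for GFP-positive cells. It was the 1 gene of the 9 whose promoter stood higher in the GFP-positive list by −log10 q and by percentile. The ratio of fold enrichments at Klf4, GFP-negative over GFP-positive, was 0.748, and 5.01% of common promoter regions of the genome had a lower one.

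**Figure D2:**
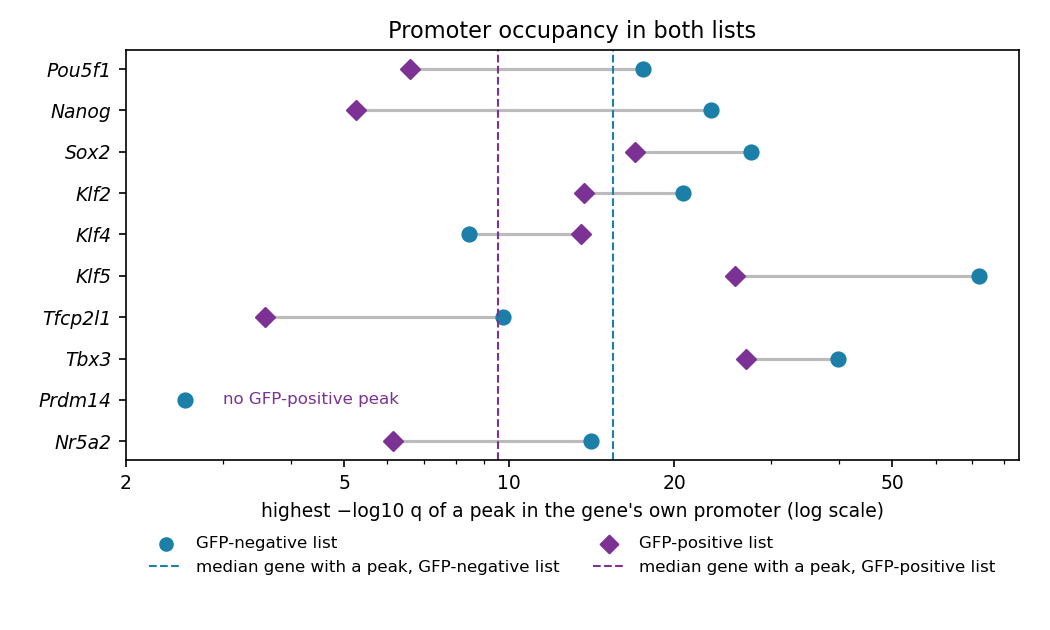
For each gene the highest −log10 q of a peak in its own promoter is drawn on a log scale for the GFP-negative (circles) and GFP-positive list (diamonds). Dashed lines are the medians of all protein-coding genes that have such a peak, 15.5 and 9.55. Klf4 is the gene whose diamond lies to the right of its circle, and Prdm14 has no diamond.

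The accessory genes had the weakest and some of the strongest promoters. Tbx3, a T-box factor gene, had 6 promoter regions spread over its annotated start sites, 3 of them common. The strongest, at +0.066 kb, had a −log10 q of 39.7 (fold 16.1, percentile 95.4) in the GFP-negative list and of 27.1 (fold 12.4, percentile 94.6) in the GFP-positive list. The region at an internal start site, at +9.91 kb, had 15.5 and 1.93, which is percentile 83.8 against 26.3. The third common region, at −2.26 kb, had 4.74 and 2.68. Tfcp2l1, which encodes a CP2-family factor downstream of LIF signalling, had 9.76 (fold 6.59) and 3.59 (fold 4.09) at its start site, and a region of the GFP-negative list alone at −2.39 kb with 5.50.

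Nr5a2 encodes the nuclear receptor LRH-1, which binds regulatory sites of Pou5f1. Its promoter peaks lay at internal start sites and not at the 5′ end of the gene. The strongest had a −log10 q of 14.1 (fold 8.31) in the GFP-negative list and of 6.14 (fold 5.08) in the GFP-positive list, in separate regions. The region around the first, at +12.1 kb, counts as distal below, because its 2 summits were 1659 bp apart and their midpoint was 827 bp past the nearest start site. Prdm14, whose product represses FGF signalling and DNA methylation in naive cells, had 2 weak promoter regions in the GFP-negative list alone. Their −log10 q was 2.56 (fold 2.77) at −0.127 kb and 2.05 (fold 2.78) at −1.68 kb. At a −log10 q of at least 5, or in lists cut to equal length, Prdm14 had no promoter peak in either list.

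Among genes with a promoter peak, the strongest −log10 q had a median of 19.1 over the 10 genes and of 15.5 over 14876 genes in the GFP-negative list. In the GFP-positive list it was 13.5 over the 9 genes and 9.55 over 13010 genes. The ratio of fold enrichments in the 11 common own-promoter regions had a median of 1.36, with 9 of 11 above 1, beside a median of 1.39 and 81.0% above 1 over 15584 common promoter regions. By this measure the promoters of the 10 genes lay near the common promoters of the genome.

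Distal occupancy, meaning summits in no annotated promoter, was compared next. The 10 genes had 140 distal GFP-negative and 54 distal GFP-positive peaks. More distal peaks in the GFP-negative list were found for 9 of 10 genes, against 57.3% of all protein-coding genes. None of the 10 had more in the GFP-positive list, against 18.7% of all, since Nr5a2 had 7 in each. With the GFP-negative list cut to its strongest peaks at the length of the GFP-positive list, 8 of 10 genes had more distal GFP-negative peaks, against 32.7% of all genes. Under that cut 2 of 10 had more GFP-positive ones, against 36.5% of all. These were Klf4, with 4 and 5, and Nr5a2, with 3 and 7.

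Gene by gene, Pou5f1 had 24 distal GFP-negative and 14 distal GFP-positive peaks, Nanog 17 and 8, and Sox2 9 and 2. Of the core genes, Sox2 thus had the fewest distal peaks in either list. Klf2 had 24 and 11, Klf4 7 and 5, and Klf5 7 and 2. Tfcp2l1 had 9 and 1, Tbx3 21 and 2, and Prdm14 15 and 2. The widest gaps by ratio were those of Tbx3, Tfcp2l1 and Prdm14, all accessory genes. In lists of equal length the counts were 15 and 14 for Pou5f1, 9 and 8 for Nanog and 12 and 11 for Klf2, so that the gap at these 3 genes all but closed. At Tbx3 they were 16 and 2, at Prdm14 12 and 2, and at Tfcp2l1 6 and 1.

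Per 100 kb of gene body and flanks, the median of the 10 genes was 11.01 distal GFP-negative peaks, against 2.41 over all protein-coding genes, and 2.59 distal GFP-positive peaks, against 1.52. Klf2 (23.4), Pou5f1 (22.9) and Tbx3 (18.4) had the most GFP-negative peaks per 100 kb, each at or above 98.0% of all genes. In the GFP-positive list Pou5f1 (13.4) and Klf2 (10.7) stood high as well, at or above 98.5% and 96.4% of genes. Tbx3 had 1.75 there, at or above 53.6% of genes.

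**Figure D3:**
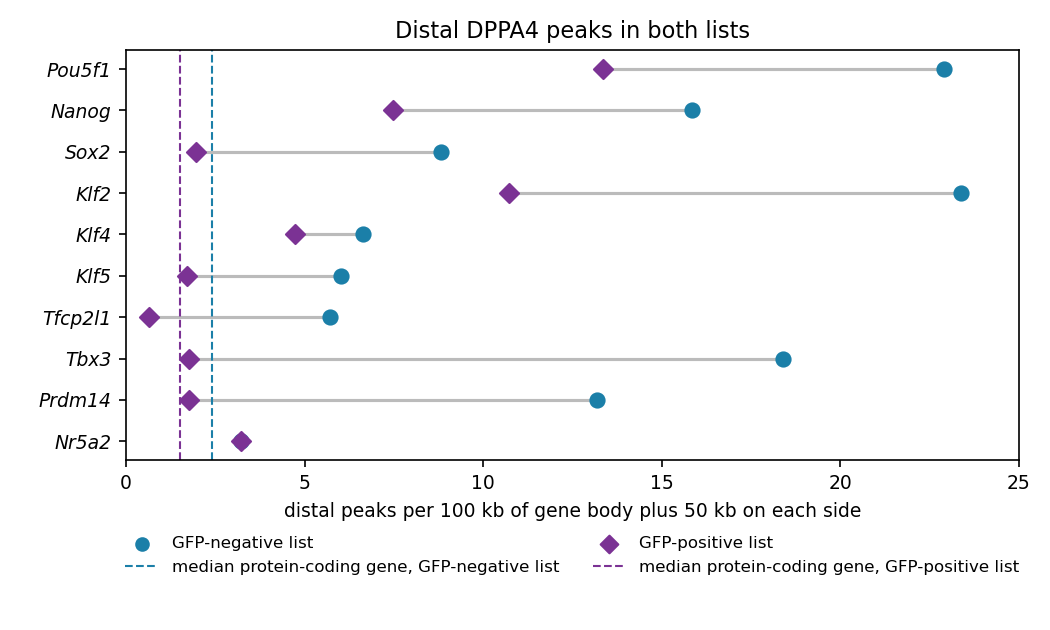
Distal peaks per 100 kb of gene body plus flanks are drawn for each gene in the GFP-negative (circles) and GFP-positive list (diamonds), with dashed lines at the medians of all protein-coding genes, 2.41 and 1.52. At Nr5a2 both symbols fall on 3.21. Tbx3 and Prdm14 lie far right in the GFP-negative list and near the dashed line in the GFP-positive list.

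By region, 43 of the 145 distal regions were common (29.7%, 22.8 to 37.5), 94 were GFP-negative-specific (64.8%, 56.8 to 72.1) and 8 were GFP-positive-specific (5.52%, 2.82 to 10.5). Over the 71523 distal regions of the genome the shares were 26.9%, 52.0% and 21.1%. In lists of equal length the distal shares near the 10 genes were 32.1%, 50.9% and 17.0%, beside 29.9%, 34.8% and 35.2% over the genome. The excess of GFP-negative-specific distal regions over the genome was thus present in both settings, at unlike levels. GFP-negative-specific regions made up 25 of 50 distal regions at the core genes (interval 36.6% to 63.4%), 59.0% of 39 at the KLF genes (43.4 to 72.9) and 82.1% of 56 at the accessory genes (70.2 to 90.0). The genes within a group differed, with 8 of 10 at Sox2 against 7 of 22 at Pou5f1 among the core genes, and 20 of 21 at Tbx3 against 5 of 11 at Nr5a2 among the accessory genes.

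**Figure D4:**
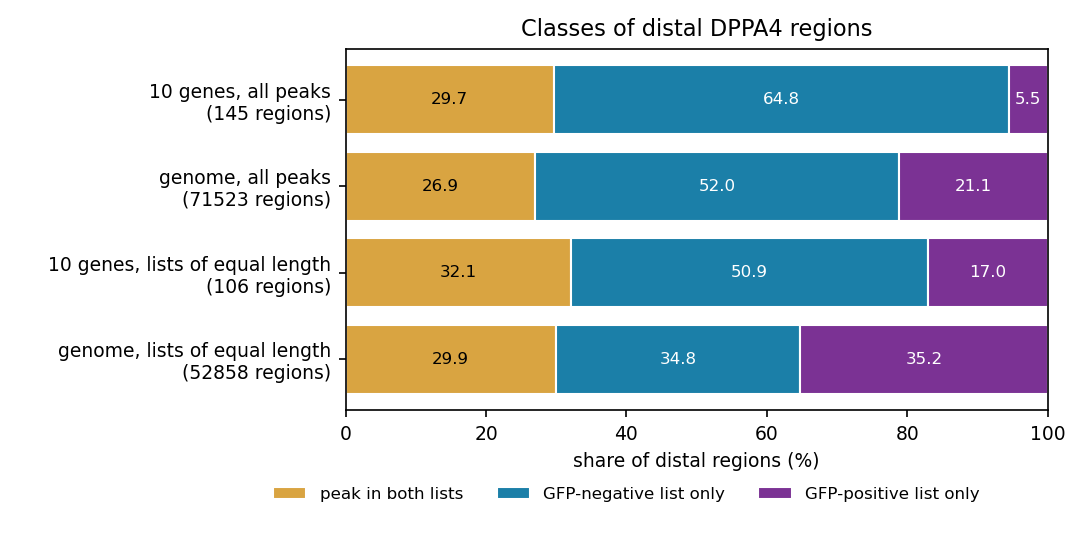
Bars give the share of distal regions in each class, in percent, near the 10 genes and over the genome, with all peaks and with the GFP-negative list cut to the length of the GFP-positive list. In both settings the bar of the 10 genes has a longer GFP-negative part and a shorter GFP-positive part than the bar of the genome, for example 17.0% against 35.2% in lists of equal length.

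A weak peak can miss its partner by falling below the threshold, so the comparison was repeated by strength. Of distal GFP-negative peaks with a −log10 q of at least 10, 9 of 20 near the 10 genes overlapped a GFP-positive peak (45.0%, 25.8 to 65.8), against 75.01% of 9953 such peaks in the whole list. Below that strength the shares lay nearer to the whole list, at 12 of 22 against 46.1% from 5 to 10, 17 of 68 against 26.0% from 2 to 5, and 8 of 30 against 16.1% under 2. Of peaks of at least 10 in any annotated promoter, 10 of 10 had a partner, against 93.2%. These include peaks in promoters of other genes, at Cchcr1 and Tcf19 near Pou5f1 and at Gm42692 near Sox2. The interval of the strong distal peaks did not reach the value of the whole list, whereas that of the strong promoter peaks (72.2 to 100) held it. The strength classes were chosen after the distal shares were known, and peaks are not replicates, so these shares are a description. The whole list was not matched for repeats. Soft-masked bases averaged 17.3% at distal regions near the 10 genes and 32.0% over the genome. At common distal regions they averaged 18.3% and 43.5%. Whether this bears on the shares was not tested. Cutting the GFP-negative list to equal length keeps these strong peaks by construction and leaves the GFP-positive list unchanged. It therefore cannot bear on their share with a partner.

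**Figure D5:**
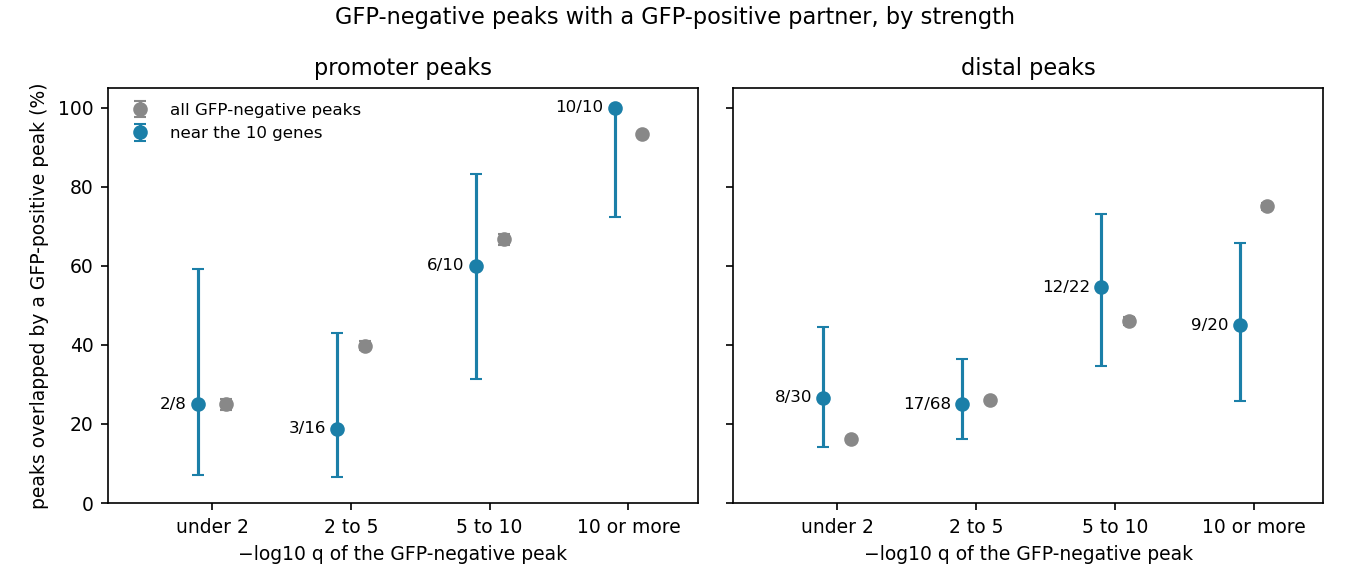
The share of GFP-negative peaks that overlap a GFP-positive peak is drawn in percent by −log10 q. Promoter peaks (in any annotated promoter) and distal peaks are shown near the 10 genes (blue, with counts) and in the whole list (grey). Bars are 95% Wilson intervals. At −log10 q of 10 or more the blue point lies at 45.0% against 75.01% for distal peaks and at 100% against 93.2% for promoter peaks.

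The 11 strong distal GFP-negative peaks without a partner belonged to 7 of the 10 genes. Tfcp2l1 had the strongest, in its intron at +20.2 kb (chr1:118647584-118648728, −log10 q 29.2, fold 8.62), and another at +17.9 kb (18.8, fold 9.27). Pou5f1 had an intergenic one at −20.0 kb (chr17:35485315-35486118, 24.5, fold 11.1) and one at −15.5 kb (10.4). The Pou5f1 and Tfcp2l1 windows are those printed above. For Sox2 it was at +18.2 kb, in an intron of the long non-coding RNA gene Sox2ot (chr3:34668043-34668778, 22.3, fold 10.99). For Nanog it was at −44.4 kb (chr6:122662281-122664127, 20.3, fold 8.62), and for Tbx3 at +39.4 kb (20.05, fold 11.2) and −13.1 kb (13.2). Klf2 had one at −47.1 kb (12.8), and Prdm14 had them at +23.1 kb (10.97) and +42.04 kb (10.3). All 11 had a copy number of 1, the median count in the genome of the 31-mers around the summit. Klf4, Klf5 and Nr5a2 had no such peak. Their strongest distal regions of the GFP-negative list alone had a −log10 q of 1.52 at +51.4 kb of Klf4, 8.34 at +26.1 kb of Klf5 and 5.19 at +2.57 kb of Nr5a2.

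Of 10 common distal regions with a GFP-negative −log10 q of at least 10, 9 had a higher fold enrichment in the GFP-negative list (median ratio 2.05), beside 80.0% of 7394 such regions of the genome (median 1.49). Regions picked for their strength in 1 list tend to stand lower in the other, so these values are a description. All 3 regions with a GFP-positive −log10 q of at least 10 had a ratio below 1. Of 5157 such regions of the genome 49.9% had a ratio above 1 (median 0.998). The strongest distal region of the 10 genes, at −3.12 kb of Klf2 (chr8:72315259-72316885), had a −log10 q of 67.8 (fold 21.9, percentile 98.7) in the GFP-negative list and of 7.55 (fold 5.85, percentile 73.3) in the GFP-positive list. Its ratio of fold enrichments, 3.75, was higher than in 99.1% of common distal regions. The region at −4.83 kb of Nanog (chr6:122702078-122703768), near a known upstream enhancer of this gene, had 33.5 (fold 11.6) and 7.34 (fold 5.14), with summits 4 bp apart. A region at +57.3 kb of Nanog had 21.8 and 7.71. At Pou5f1 the regions at +3.47 kb, in an exon, and at −5.18 kb had 14.0 and 10.8 in the GFP-negative list and 1.86 and 1.61 in the GFP-positive list. At Klf5 the region at +2.96 kb had 13.4 and 8.32, at Prdm14 the one at +45.1 kb had 11.9 and 5.24, and at Nr5a2 the one at +12.1 kb had 14.1 and 5.09. Sox2 and Tbx3 had 1 common distal region each, with 5.49 and 3.46 at −11.0 kb of Sox2 and 2.89 and 2.66 at −32.5 kb of Tbx3. Over the 43 common distal regions, 31 had a ratio above 1, with a median of 1.11, beside a median of 1.15 and 64.2% above 1 over the genome.

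Some common distal regions stood higher in the GFP-positive list. Downstream of Pou5f1, 5 of the 7 common distal regions from +28.8 to +51.0 kb did by −log10 q. The strongest of these had 3.35 and 11.6 at +41.7 kb and 7.67 and 11.4 at +37.0 kb, where the first value is that of the GFP-negative list. At Klf4 the region at +2.05 kb, in an exon, had 8.13 and 9.81, as its promoter also stood higher in the GFP-positive list. The strongest common distal region of Klf4, at +51.9 kb, went the other way, with 9.93 and 2.80. So did those at +54.5 kb and +17.6 kb, with 9.49 and 4.30 each. The strongest distal GFP-positive peak near any of the 10 genes was at −39.7 kb of Tfcp2l1, in an intron of Clasp1, with 23.5 and 38.0. Its summit was fully soft-masked and had a copy number of 2821, and reads from such sequence were placed at a single copy, so that the occupied copy is not known. It was the 1 distal GFP-positive peak near Tfcp2l1. Of the 191 regions, 184 had a copy number of 1 and 4 had one of 10 or more, all of them common.

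Of the 54 distal GFP-positive peaks near the 10 genes 46 overlapped a GFP-negative peak (85.2%, 73.4 to 92.3), against 57.2% of 35231 in the whole list. In lists of equal length 36 of the 54 had a partner (66.7%, 53.4 to 77.8), against 47.2% in the whole list, so that 18 in place of 8 stood alone. With all peaks, 1473 of 5076 distal GFP-positive peaks of the whole list lacked a partner at a −log10 q from 5 to 10. At 10 or more, 276 of 5467 did. Near the 10 genes these counts were 1 of 12 and 0 of 3. Of the 15 distal GFP-positive peaks near these genes with a −log10 q of at least 5, 1 thus lacked a partner. It lay at −24.5 kb of Nr5a2 (chr1:136984335-136985185, −log10 q 5.46, fold 4.66), in the mostly soft-masked sequence printed above. The strongest GFP-positive-specific distal regions elsewhere had 3.71 at +3.97 kb of Klf2, 2.55 at +11.3 kb of Sox2, 2.24 at −33.3 kb of Nanog and 1.66 at +19.3 kb of Pou5f1. Klf4, Klf5, Tfcp2l1, Tbx3 and Prdm14 had none within 50 kb.

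Beyond 50 kb, Sox2 and Klf4 were followed to 150 kb, since mESC enhancers of both genes are known to lie far downstream. Sox2 had 16 further regions, 14 of them GFP-negative-specific and 2 common. The strongest, at +95.03 kb, was GFP-negative-specific (chr3:34744772-34746190, −log10 q 47.8, fold 19.6, percentile 96.9), and was stronger than the Sox2 promoter peak in the same list. Its summit window, at chr3:34745384-34745484, is shown because no region of the GFP-negative list alone within 50 kb of the 10 genes was stronger, with the KLF match in capitals.
Sox2 +95.03 kb: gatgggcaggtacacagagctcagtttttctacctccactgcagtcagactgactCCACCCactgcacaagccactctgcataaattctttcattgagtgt
The common regions lay at +107.7 kb, with a GFP-negative −log10 q of 19.3 and a GFP-positive one of 2.39, and at +110.4 kb, with 6.53 and 2.27. This is the range where the Sox2 control region, its main mESC enhancer, is known to lie, though positions of that enhancer were not used here. The summit of the first held SOX, KLF and nuclear receptor letters. Klf4 had 10 further regions, all GFP-negative-specific, of which the strongest were at +56.9 kb (10.6, fold 7.85) and +67.9 kb (8.52, fold 6.27). Next to these, inside the 50 kb window, lay the common Klf4 regions at +51.9 kb and +54.5 kb. Occupancy of this downstream stretch was thus not confined to the GFP-negative list. Of the other genes, Klf2 had 41 further regions, 20 of them GFP-positive-specific, Nr5a2 30 with 12, and Pou5f1 37 with 10. With a window of 150 kb the GFP-positive-specific share near the 10 genes was 15.7%, so the low share of 5.76% held for the near surroundings.

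The letters under the summits were compared with those of all regions. Octamer letters were found in the 201 bp around the summit in 3 of 145 distal regions near the 10 genes (2.07%) and in 2.04% of all distal regions. For SOX letters the shares were 14.5% and 10.8%, for KLF letters 22.8% and 24.5%, and for nuclear receptor letters 7.59% and 5.01%. Among GFP-negative-specific distal regions, nuclear receptor letters were found in 9 of 94 (9.57%) near the 10 genes and in 6.76% over the genome. In this class SOX letters were found in 16.0% and 13.9%. KLF letters, at 20.2% and 27.8%, and octamer letters, at 1.06% and 2.66%, went the other way. Short letters match often by base composition alone, and a match is not a bound site. Common promoter regions near the 10 genes held a median of 9.5 CpGs in this window, against 13 over the genome, and the own-promoter regions ranged from 1 to 26. Distal regions held a median of 3, against 4 over the genome.

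Other genes of the naive network and of neighbouring states were set beside the 10 genes by list. All 14 of 14 signalling genes of the LIF, BMP and WNT pathways had a promoter peak in both lists, against 57.0% of all genes. Stat3, the transcription factor activated by LIF, had a −log10 q of 63.4 and 21.1, and Id3, a target of BMP signalling, had 66.4 and 21.2. Of 12 other pluripotency regulators 12 and 10 had one, and those without a GFP-positive promoter peak were Dppa3 (22.2 in the GFP-negative list) and Nr0b1 (2.14). Esrrb, the orphan nuclear receptor of the network, had 26 distal GFP-negative and 4 distal GFP-positive peaks. The GFP-negative-specific share of distal regions was 69.9% at the signalling genes and 66.9% at the other regulators, close to the 64.8% at the 10 genes. Over all distal regions of the genome it was 52.0%. Of 11 genes of the formative state that follows naive pluripotency, 9 and 5 had a promoter peak, against 67.8% and 59.3% of all genes. Otx2, Fgf5, Lef1 and Foxd3 had it in the GFP-negative list alone, and 79.4% of the distal regions of these genes were GFP-negative-specific.

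For reference, 10 genes of the 2-cell state were taken, which include Zscan4, Tdpoz and Usp17l family members. Peaks of the same lists do not check the sort itself. Near these genes 104 of 121 regions were GFP-positive-specific (86.0%, 78.6 to 91.0), against 18.4% of all regions. Of the others, 14 were common and 3 GFP-negative-specific. A GFP-positive promoter peak was found at 6 of the 10 genes, against 59.3% of all protein-coding genes, and at none of Zscan4c, Zscan4d and Zscan4f. A GFP-negative promoter peak was found at 1 of the 10, against 67.8% of all. Of the regions near Duxf3, 7 were common, 2 were GFP-positive-specific and 1 was in the GFP-negative list alone, and Zfp352 had 1 GFP-negative-specific region alone. Many of these genes have near-identical copies, between which reads cannot be told apart. The identity of GFP-negative cells as mESCs cannot be read from peak lists, which hold no expression.

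The genes most like the 10 in pattern were found by the distance, over 5 values on a log2(1 + value) scale, to the median of the 10. The values were the distal regions of each class and the strongest promoter −log10 q in each list. Rps3 (0.544), Gm21987 (0.568), Tmem106c (0.572), Upp2 (0.578) and Cfap45 (0.585) were nearest among protein-coding genes. Of the 10 genes, Sox2 was nearest to their median, at 1.32, and Prdm14 farthest, at 4.29, so these 5 genes lay closer to this median than any of the 10 did. They were picked as the nearest of all other protein-coding genes, so their smaller distances are no result about the 10.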

How the data were processed

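The authors trimmed the CUT&RUN reads with bbduk, aligned them to mm10 with STAR 2.7.10, which kept multimapping reads at a single place, and used Picard 2.26.0, SAMtools 1.14 and bedtools 2.30.0 before calling peaks with MACS2 2.2.6 on whole fragments, per the methods and the submitters' processing notes. Reads over high-signal regions of the ENCODE blacklist were removed. There were 2 deposited lists, each pooling the 2 DPPA4 libraries of its group. The authors' fold enrichment is the ratio of summit signal to the background of MACS2. The deposited −log10 q is the authors' significance of the summit, with a lowest value of 1.30 in both lists. The deposited score and −log10 p were not used. The methods state the same nominal number of reads for each library. Whether IgG served as control, and the reads obtained per list, are not given in the sources used here.

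Peaks on chromosomes 1 to 19, X and Y were used, and 1575 GFP-negative and 5 GFP-positive peaks on other sequences were left out. Places were taken by summit, and in common regions by the midpoint of both lists' strongest summits. Intervals are 95% Wilson intervals (SciPy 1.17.1, Python 3.11.15). The joining of peaks was tested on simulated data. The text names all 10 genes, their strongest distal region of each class, regions to 150 kb for Sox2 and Klf4, and a few examples of each other list. Own-promoter regions of the 10 genes are named, except weaker ones of the GFP-negative list alone at Tbx3 and Nr5a2. Further regions, chiefly the distal ones with a −log10 q of at least 10, were named after their values were seen. The members, lists and thresholds were chosen with earlier results of these data known. No test between lists was made, since neither list has replicates. Alternatives changed the threshold, list length, overlap, window and promoter, and 1, single-copy regions alone, was chosen after seeing the data.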

Additional observations from a re-analysis of the deposited data

How the results depend on the processing

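No paired analysis was possible because the replicates of a group were merged in 1 peak list, so no result comes from a test and no replicate could be left out. Of 96 alternative values of 9 results under 11 settings, 73 stayed within the interval of the main value (or, for counts of genes, within 1.5 times), 23 moved and 0 reversed. These labels judge the values of the 10 genes alone, not their side of the genome value. The common share of distal regions stood above the genome in the main setting (29.7% against 26.9%) and below it under some settings, as given next. Peaks of a −log10 q of at least 5 moved the common share of distal regions to 20.8%, against 31.4% over the genome. At 10 or more the shares near the 10 genes were 18.2% common and 72.7% GFP-negative-specific, and 5 genes had a GFP-positive promoter peak. For distal regions they were 4.55% and 86.4%, against 35.7% and 51.9% over the genome. Counts over all protein-coding genes are not given for the changed thresholds. Lists of equal length gave shares of 46.04% for GFP-negative-specific and 17.3% for GFP-positive-specific regions, and 78.6% common own-promoter regions. Of distal regions 50.9% were then GFP-negative-specific, against 34.8% over the genome. With the strongest 10000 peaks of each list, 16 regions were left, 43.75% GFP-negative-specific and 18.75% GFP-positive-specific. Of distal regions 11.1% were then common, against 40.8% over the genome. In this setting 5 genes had a promoter peak in each list and 4 had more distal GFP-negative peaks. Requiring summits within 200 bp gave 17.9% common and 17.5% GFP-positive-specific regions, with 22.2% of own-promoter and 16.2% of distal regions common. The common share of distal regions over the genome was then 19.2%. A window of 150 kb gave 15.7% GFP-positive-specific regions and 53.4% in the GFP-negative list alone, and a promoter from 1 kb upstream 75% common own-promoter regions. Higher thresholds and shorter lists leave fewer peaks by construction, and otherwise the cause was not tested. Single-copy regions alone moved none of the 6 shares computed for them, where 30.98% of regions were common. The reads obtained per list, which are not known beyond a nominal depth, limit each comparison of counts between the lists.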
